A study of Saccharomyces cerevisiae with 6 samples.

Results

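The 10 genes described here encode the cytosolic Hsp70, Hsp110 and Hsp90 chaperones of the yeast Saccharomyces cerevisiae. They were taken by name and matched through the systematic name of their array probe, and each of the 10 had 1 probe among the 6256 gene probes of the array. They comprise the Hsp70 genes SSA1, SSA2, SSA3 and SSA4, the ribosome-bound Hsp70 genes SSB1 and SSB2, the Hsp110 genes SSE1 and SSE2, and the Hsp90 genes HSP82 and HSC82. Total RNA was compared between the haploid laboratory strain BY4741, called wild type in the labels, and BY4741 lacking PHO80, each sampled after 6 h of fermentation in medium with 80 g/l xylose. PHO80 encodes the cyclin that directs the Pho85 kinase against Pho4, the transcription factor of phosphate starvation. Each strain had 3 Cy3-labelled samples on 1-colour Agilent arrays. The labels do not say how PHO80 was removed, how many clones were used or whether the 3 samples came from separate cultures.

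Hsp70 proteins bind and release unfolded stretches of other proteins as they cycle between ATP and ADP. J-proteins start that cycle, and exchange factors, among them the Hsp110 proteins Sse1 and Sse2, end it by removing ADP. Hsp90 takes over part-folded clients such as kinases from Hsp70 through the bridging protein Sti1. Yeast keeps pairs of these genes that differ in use. SSA2 and HSC82 are expressed steadily in unstressed cells, SSA1 and HSP82 are expressed there too and rise on heat, and SSA3, SSA4 and SSE2 are known as stress-induced forms. Ssb1 and Ssb2 hold nascent chains at the ribosome, and in yeast their genes are known to fall on heat shock together with ribosomal protein genes. The transcription factor Hsf1 drives many of these genes, and Msn2 and Msn4 drive the wider stress response.

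PHO80, read first as a check of the labels, was below the detection call on all 3 deletion arrays and at least 27.4-fold lower there than on the wild-type arrays. This bound sets the wild-type mean against the lowest signal well above background on each deletion array. Of the genes that BY4741 lacks, HIS3, LEU2 and MET17 were not well above background on any of the 6 arrays, whereas URA3 was on all 6. URA3 was also 4.07-fold higher in the deletion strain (log2 fold change 2.02 ± 0.21, limma adjusted p = 0.00497). The source of this further difference between the strains was not tested. Signals are given as log2 of the processed signal relative to the 75th percentile of the array, which ranged from 2404 to 5011 across arrays. Array pairs were compared by their squared log2 difference per gene divided by the variance among spots, whose median is 0.484 when spot noise alone separates a pair. Arrays 1 and 3 gave 0.434 for wild type and 0.396 for the deletion strain, so each such pair was averaged and treated as a single sample, with array 2 as the other. Against its companions array 2 gave 0.634 and 0.677 for wild type but 87.5 and 93.7 for the deletion strain, and the value on that array is given for each of the 10 chaperone genes. The p-values therefore measure the spread between these few samples, which in wild type is near spot noise. Each strain was on a slide of its own, and slide and strain cannot be told apart.

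Within the family the genes moved in both directions. At a Benjamini-Hochberg adjusted p under 0.05 in limma, 4 of the 10 genes were higher in the deletion strain (SSA4, HSP82, SSE2 and SSA2) and 3 were lower (SSB2, SSA3 and SSB1). SSA1, SSE1 and HSC82 did not pass. The difference between the strains was broad, with 53.8% of 5863 genes tested called, 19.2% as higher and 34.6% as lower. All 10 chaperone genes were well above background on all 6 arrays, and all 10 were tested. Each of the 7 that passed differed by at least 2-fold, and 35.2% of all genes both passed and differed by that much. For 8 of the 10 genes the arrays of the strains did not overlap, near the 82.0% of all genes of which this holds. SSA1, SSA2, SSA4, SSE2 and HSP82 lay above wild type on every deletion array (5 of 10, against 31.1% of all genes), and SSA3, SSB1 and SSB2 lay below (3 of 10, against 50.9%). The median log2 fold change of the 10 genes was 0.62, against -0.28 for all genes tested. After quantile normalization these medians were 0.43 and 0.03, so their distance shrank from 0.91 to 0.40.

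**Figure D1:**
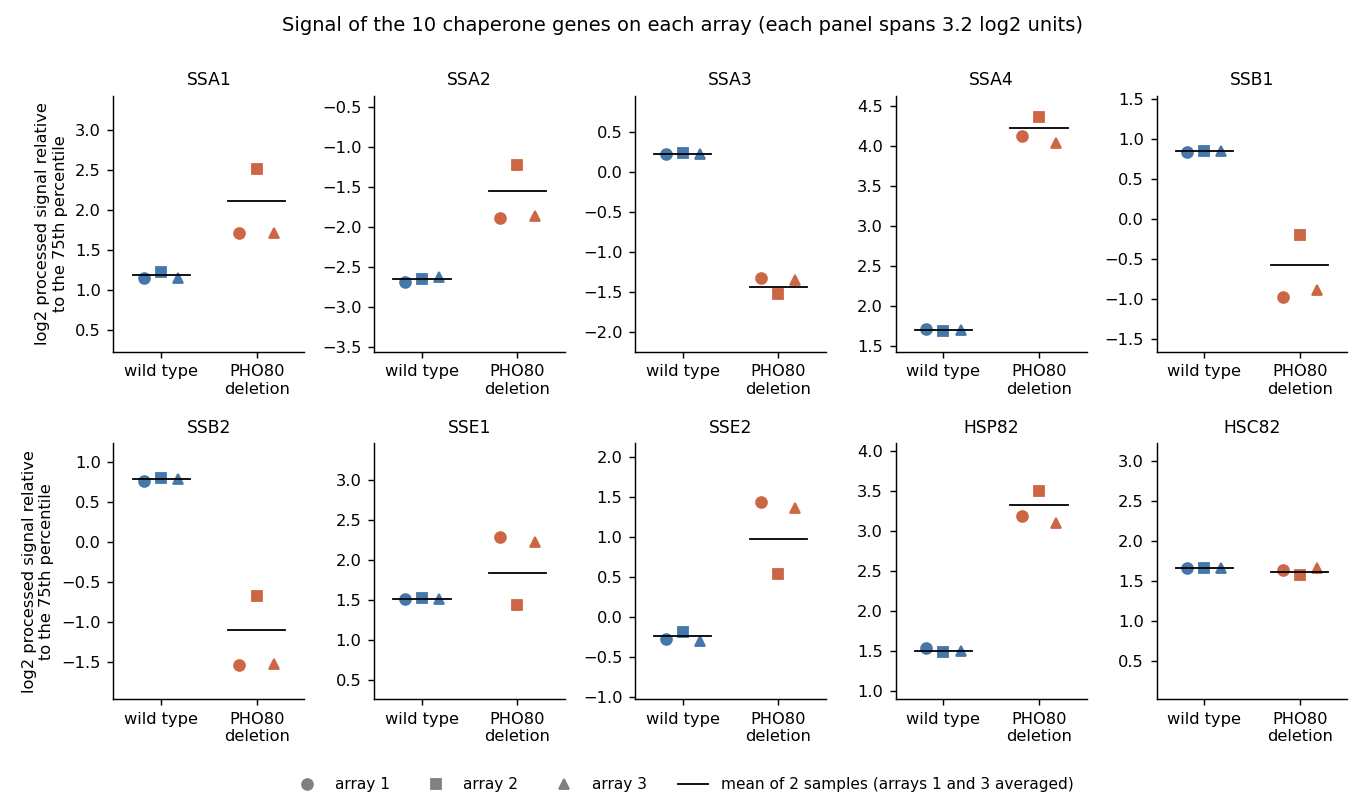
Log2 processed signal, scaled by the 75th percentile of its array, for each of the 10 chaperone genes, with 1 point per array (3 wild-type arrays in blue, 3 PHO80-deletion arrays in red) and a line at the mean of the 2 samples of each strain. Each panel has its own level because signals of different probes cannot be ranked; the wild-type points lie within 0.12 of each other in every panel, and deletion array 2 stands apart from arrays 1 and 3 in most.

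SSA4, known as a stress-induced Hsp70 gene, showed the largest rise of the family, from a wild-type signal that was already well above background. Its log2 signal was 1.71, 1.69 and 1.70 on the 3 wild-type arrays and 4.13, 4.37 and 4.04 on the deletion arrays. Deletion arrays thus all lay far above wild type, with a gap of 2.33 between the nearest arrays of the strains. The log2 fold change was 2.53 ± 0.15 (SE, 2 samples per strain), a 5.77-fold rise (limma adjusted p = 0.00253), and it ranked 64 of the 5863 genes tested, counted from the largest rise. Before any scaling the processed signal was 9062, 9246 and 8077 on the wild-type arrays against 58931, 49542 and 82457 on the deletion arrays.

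SSA3, the other stress-induced Hsp70 gene of the SSA group, moved the opposite way. It read 0.23, 0.24 and 0.23 on the wild-type arrays and -1.32, -1.53 and -1.34 on the deletion arrays. Every deletion array was below every wild-type array, and deletion array 2 was close to its companions. SSA3 fell by 1.66 on the log2 scale (SE 0.12, limma adjusted p = 0.00319), which is 3.17-fold. Its processed signal was 3245, 3382 and 2922 on the wild-type arrays against 1343, 835 and 1978 on the deletion arrays.

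SSA1 and SSA2, both known to be expressed in unstressed cells, had higher signals on every deletion array, and only SSA2 passed the test. SSA2 read -2.69, -2.65 and -2.63 on the wild-type arrays against -1.88, -1.23 and -1.87 on the deletion arrays. It rose 2.15-fold (SE 0.26 on the log2 scale, limma adjusted p = 0.0294). Deletion array 2 gave the highest reading, 0.65 above the mean of arrays 1 and 3. Without wild-type array 2 the log2 difference was 1.11, and SSA2 was not called in that fit, which pools the spread over genes.

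For SSA1 the wild-type arrays read 1.14, 1.22 and 1.15 and the deletion arrays 1.71, 2.51 and 1.70. The strains did not overlap, but deletion array 2 lay 0.80 above arrays 1 and 3, more than the distance of those arrays from wild type. The log2 fold change was 0.92 ± 0.30 and did not pass (limma adjusted p = 0.0682). It was 0.52 without deletion array 2, where it passed with a spread taken from the wild-type arrays alone, and with median centring it was 1.23 and passed (adjusted p = 0.0426). SSA1 and SSA2 encode nearly identical proteins, and how far their probes separate the transcripts was not tested. The same holds for SSA3 and SSA4, for the SSB and Hsp90 pairs and for the other chaperone genes here.

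SSB1 and SSB2, the Hsp70 genes whose products sit on the ribosome, both fell. SSB2 read 0.76, 0.80 and 0.79 on the wild-type arrays and -1.54, -0.67 and -1.53 on the deletion arrays. It fell by 1.89 on the log2 scale (SE 0.32, limma adjusted p = 0.0137), which is 3.71-fold, and 8.68% of genes fell further. SSB1 read 0.83, 0.84 and 0.85 on the wild-type arrays against -0.98, -0.21 and -0.90 on the deletion arrays. It fell by 1.41 (SE 0.28, limma adjusted p = 0.0193), which is 2.66-fold. In both genes all deletion arrays lay below wild type, and deletion array 2 was the least reduced, standing above arrays 1 and 3 by 0.73 for SSB1 and 0.86 for SSB2. The 132 cytosolic ribosomal protein genes tested, a set added after these values were seen, had a median log2 fold change of -2.02 with 120 lower and 1 higher, where 34.6% and 19.2% of all genes were so called. Their median shift on deletion array 2, relative to the other deletion arrays, was 0.33.

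Of the Hsp110 genes, which serve Hsp70 as exchange factors, the stress-induced SSE2 rose and SSE1 did not pass. SSE2 read -0.28, -0.18 and -0.30 on the wild-type arrays and 1.45, 0.54 and 1.37 on the deletion arrays. All deletion arrays were above wild type, but array 2 was 0.87 below the mean of arrays 1 and 3. The rise was 1.21 ± 0.33, or 2.31-fold (limma adjusted p = 0.0426), and it was 1.64 without deletion array 2.

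SSE1 read 1.52, 1.53 and 1.51 on the wild-type arrays against 2.29, 1.44 and 2.23 on the deletion arrays. Deletion arrays 1 and 3 were above wild type and deletion array 2 was below it, so the strains overlapped. The log2 fold change was 0.33 ± 0.31 (limma adjusted p = 0.418). It was 0.15 (adjusted p = 0.726) after quantile normalization and 0.63 (adjusted p = 0.127) with median centring. Without deletion array 2 it was 0.74 and passed, with a spread taken from the wild-type arrays alone and mostly pooled over genes.

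HSP82, the heat-inducible Hsp90 gene, rose, whereas HSC82, the steadily expressed one, gave nearly the same signal in both strains. HSP82 read 1.53, 1.48 and 1.50 on the wild-type arrays against 3.18, 3.50 and 3.10 on the deletion arrays. The nearest arrays of the strains were 1.57 apart. It rose by 1.82 ± 0.17, or 3.54-fold (limma adjusted p = 0.00405), and 3.19% of genes rose by more. Its processed signal was 7988, 8008 and 7056 on the wild-type arrays against 30546, 27247 and 42926 on the deletion arrays.

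HSC82 read 1.66 on each of the 3 wild-type arrays and 1.64, 1.58 and 1.67 on the deletion arrays, where the strains overlapped. Its log2 fold change was -0.05 ± 0.11 (limma adjusted p = 0.74), and 41.1% of genes had a higher value. The sign depended on the scaling, with 0.26 (adjusted p = 0.151) when arrays were centred on their median and -0.24 (adjusted p = 0.123) after quantile normalization. A p that misses the threshold does not show that HSC82 was equal in the strains. Relative to the median of all genes tested its value was 0.23.

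**Figure D2:**
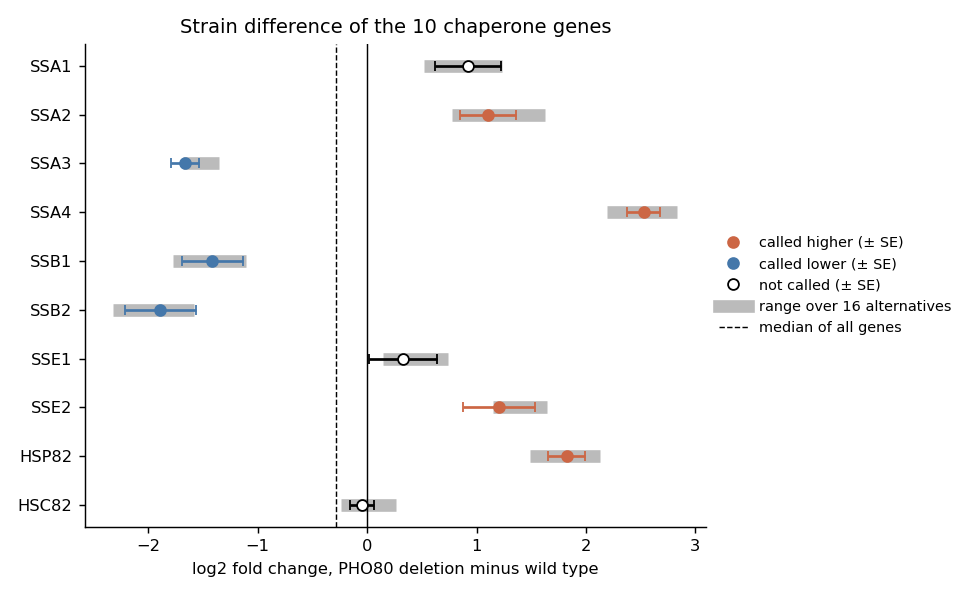
Log2 fold change (PHO80 deletion minus wild type) of each chaperone gene, as points with SE from limma on 2 samples per strain; red and blue points passed an adjusted p of 0.05 and open points did not. Grey bars span the 16 alternative analyses and the dashed line is the median of all genes tested (-0.28); SSA4 (2.53) and HSP82 (1.82) lie farthest to the right and SSB2 (-1.89) and SSA3 (-1.66) farthest to the left.

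Differences between paralogs within an array do not depend on how arrays are scaled by a constant, and 6 pairs were compared in this way. Each value is the change of the pair's log2 difference relative to its wild-type mean, and it shows unequal change rather than which gene moved. SSA4 against SSA3 shifted most, by 3.99, 4.43 and 3.92 on the deletion arrays. This is a mean of 4.19 ± 0.24 (SE, 2 samples per strain), or an 18.3-fold change of the ratio. HSP82 gained on HSC82 by 1.71, 2.08 and 1.60 (mean 1.87 ± 0.22, or 3.65-fold). In both pairs deletion array 2 was above arrays 1 and 3, and all 3 were far above the wild-type arrays, which stayed within 0.03 of their mean.

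SSE2 gained on SSE1 by 0.91, 0.86 and 0.90 on the deletion arrays (mean 0.88 ± 0.05, 1.84-fold). Although both genes were lower on deletion array 2, their difference was almost the same on all 3 deletion arrays. SSB2 lost more than SSB1, with the SSB1 minus SSB2 difference higher by 0.51, 0.41 and 0.58 (mean 0.48 ± 0.07, 1.39-fold). SSA4 gained on SSA2 by 1.67, 1.24 and 1.56 (mean 1.43 ± 0.18), but by 0.57 after quantile normalization.

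SSA1 and SSA2 shifted almost in parallel, with the SSA1 minus SSA2 difference lower by 0.24, 0.10 and 0.27 on the deletion arrays (mean -0.18 ± 0.08). That mean was -0.91 after quantile normalization, which changes differences within an array. The arrays of the strains did not overlap for any of the 6 pairs. How often this holds for other pairs of genes was not tested, and it held for 82.0% of single genes. An exact two-sided permutation test over the 3 arrays of each strain gave p = 0.1 for each pair (0.1 after adjustment over the 6 pairs), the smallest value it allows, and 0.333 over the 2 samples, again the smallest, so no pair could pass.

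**Figure D3:**
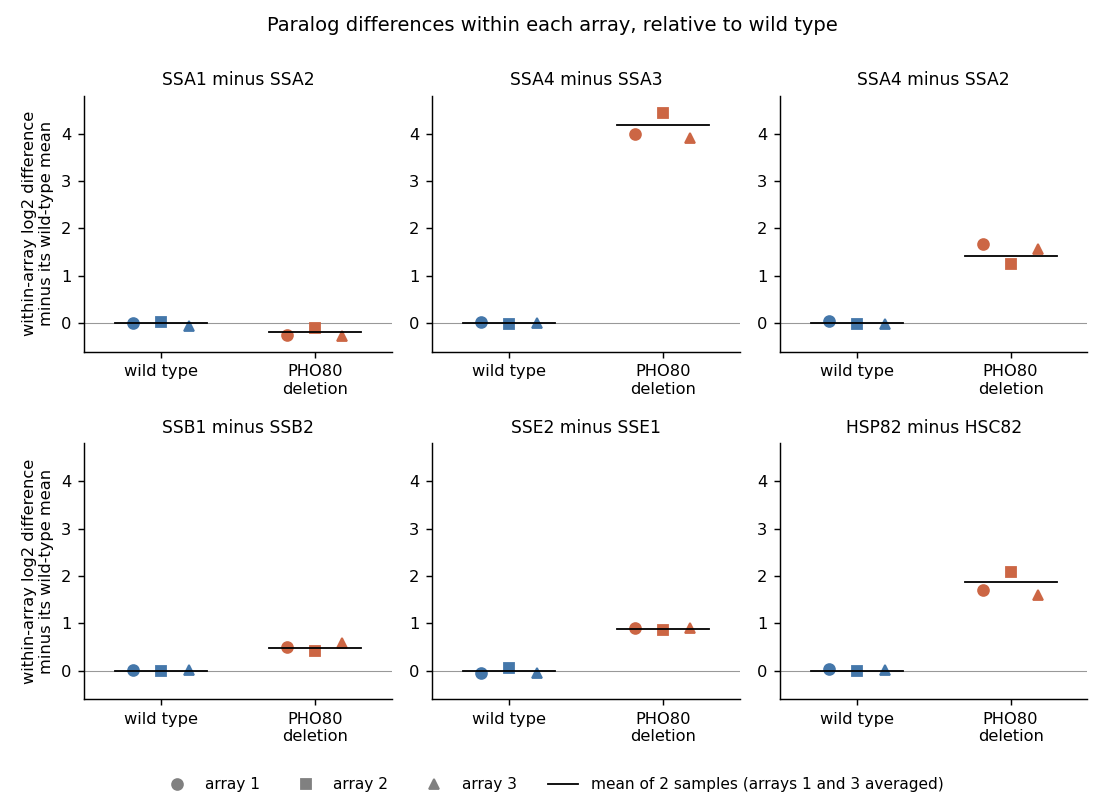
Within-array log2 difference between paralogs, minus its wild-type mean, for 6 pairs of chaperone genes, with 1 point per array and a line at the mean of the 2 samples per strain. The SSA4 minus SSA3 difference is higher by 3.92 to 4.43 on the deletion arrays and that of HSP82 minus HSC82 by 1.60 to 2.08, whereas SSA1 minus SSA2 is lower by 0.10 to 0.27.

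Variation within a strain differed by gene. Across the wild-type arrays the range of log2 signal was 0.01 to 0.12 for the 10 genes, with a median of 0.03 (0.05 for all genes). Across the deletion arrays it was 0.08 to 0.91, with a median of 0.71 (0.40 for all genes). The SD among the spots of a probe on 1 array was 0.0280 to 0.143 for these genes, so most of the range in the deletion strain was wider than spot noise. Deletion array 2 was higher than the mean of arrays 1 and 3 for SSA1, SSA2, SSA4, SSB1, SSB2 and HSP82 and lower for SSA3, SSE1, SSE2 and HSC82. Members of a pair deviated alike for SSE1 (-0.82) and SSE2 (-0.87), for SSB1 (0.73) and SSB2 (0.86) and for SSA1 (0.80) and SSA2 (0.65). They deviated in opposite directions for SSA4 (0.28) and SSA3 (-0.19) and for HSP82 (0.36) and HSC82 (-0.07), though HSC82 itself hardly deviated.

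The partners and regulators of these chaperones were read from 7 lists with 56 tested genes, of which 17 were higher and 10 lower by limma, the source of all adjusted p-values below. The counts of each list are to be read against the 19.2% of all genes that were higher and the 34.6% that were lower. These shares do not hold for other settings. With median centring 1573 of 5863 genes were called higher and 1494 lower. Without array 2 of a strain a single sample is left in it. Far more of all genes were then called without deletion array 2, and far fewer without wild-type array 2. Calls made without deletion array 2 take their spread from the wild-type arrays alone, mostly pooled over genes. Those made without wild-type array 2 take a spread pooled over genes of similar signal across the deletion arrays. A gene's own spread has no weight in them, so a call there depends mainly on how large the log2 difference is. A call lost there need not mean that the difference shrank when the array was left out. Among 12 listed J-protein genes 5 were higher and none lower, with a median log2 fold change of 0.24. The J-protein gene APJ1 rose by 2.29 ± 0.39 (adjusted p = 0.0133), from 0.12 on each wild-type array to 1.92, 2.93 and 1.86. SIS1, the essential J-protein of the Ssa chaperones, rose by 1.07 ± 0.19 (adjusted p = 0.0149). YDJ1, their most general J-protein, rose by 0.95 ± 0.22 (adjusted p = 0.0282), and CAJ1 by 0.83 ± 0.16 (adjusted p = 0.0174). Without wild-type array 2 only APJ1 was called higher and JJJ3, named after its value was seen, was called lower (-2.03).

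FES1, the exchange factor gene for cytosolic Hsp70, rose by 1.82 ± 0.17 (adjusted p = 0.00399). It read 0.10, 0.15 and 0.15 on the wild-type arrays against 2.14, 1.77 and 2.13 on the deletion arrays. It was the only one called of 4 genes in the list of exchange factors and the ribosome-associated complex. ZUO1 and SSZ1, which encode the J-protein and the Hsp70-like partner of that complex and work with Ssb1 and Ssb2, gave log2 fold changes of -0.34 ± 0.10 (adjusted p = 0.0561) and -0.13 ± 0.11 (adjusted p = 0.392). ZUO1 was called lower after quantile normalization (-0.41, adjusted p = 0.0288) but was at -0.03 with median centring (adjusted p = 0.841), where SSZ1 turned to 0.18 (adjusted p = 0.349). Without deletion array 2 the values of ZUO1 and SSZ1 were -0.33 and -0.19.

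The 12 Hsp90 co-chaperone genes gave 4 higher and 2 lower, with a median of 0.27. TAH1, part of the Hsp90-bound complex that assembles small nucleolar ribonucleoproteins, rose by 2.26 ± 0.23 (adjusted p = 0.00507), from 1.65, 1.68 and 1.62 to 3.64, 4.20 and 3.61. SBA1, the yeast p23, rose by 0.64 ± 0.11 (adjusted p = 0.0134). PPT1, a phosphatase that acts on Hsp90, fell by 1.83 (SE 0.15, adjusted p = 0.00359). After quantile normalization SBA1 was at 0.38 and PPT1 at -1.13, both still called. HCH1, an activator of the Hsp90 ATPase, fell by 0.58 (SE 0.15, adjusted p = 0.0392), a call that ended with median centring (-0.28, adjusted p = 0.165). STI1, the bridge from Hsp70 to Hsp90, differed by 0.24 ± 0.17 on the log2 scale (adjusted p = 0.281), and its strains overlapped. Its value was 0.07 without deletion array 2, 0.55 with median centring and 0.40 after quantile normalization, and it passed in none of these. Without wild-type array 2 only TAH1 and PPT1 were called.

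Of 5 genes for Hsp70 relatives in organelles, 2 were higher and 1 lower, with a median of 0.19. LHS1 of the endoplasmic reticulum rose by 0.99 ± 0.25 (adjusted p = 0.0362) and SSC1, the main mitochondrial Hsp70 gene, by 0.67 ± 0.14 (adjusted p = 0.0237). The mitochondrial ECM10 fell by 0.75 (SE 0.17, adjusted p = 0.0287). None of the 3 was called without wild-type array 2, and after quantile normalization neither SSC1 (0.24, adjusted p = 0.0665) nor ECM10 (-0.20, adjusted p = 0.238) was. With median centring ECM10 was not called either (-0.45, adjusted p = 0.0728).

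Of 4 disaggregase and mitochondrial chaperonin genes 1 was higher and 1 lower. The mitochondrial disaggregase gene HSP78 rose by 1.40 ± 0.17 (adjusted p = 0.00673). HSP104, the cytosolic disaggregase gene that works with Ssa proteins on aggregates, read 2.51, 2.63 and 2.59 on the wild-type arrays against 3.55, 2.93 and 3.40 on the deletion arrays. Its log2 fold change of 0.61 ± 0.22 did not pass (adjusted p = 0.0872), although the arrays did not overlap, and it passed with median centring (0.92, adjusted p = 0.0255) and without deletion array 2 (0.88). After quantile normalization it was 0.24 and did not pass (adjusted p = 0.47). HSP10, the co-chaperonin gene of mitochondria, fell by 0.56 (SE 0.11, adjusted p = 0.0196), a call that ended with median centring (-0.25, adjusted p = 0.171) and without wild-type array 2 (-0.59, adjusted p = 0.35).

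The cytosolic chaperonin and prefoldin, which fold actin and tubulin, gave 2 higher and 5 lower of 14 genes, with a median of -0.44. PFD1 fell by 2.31 (SE 0.25, adjusted p = 0.00545), YKE2 by 1.27 (SE 0.20, adjusted p = 0.011) and GIM3 by 0.79 (SE 0.13, adjusted p = 0.0132), all of prefoldin. The chaperonin subunit genes CCT8 and TCP1 rose by 0.68 ± 0.14 (adjusted p = 0.0207) and 0.59 ± 0.16 (adjusted p = 0.0407), while another subunit gene, CCT4, fell by 0.71 (SE 0.12, adjusted p = 0.0141). CCT4 was named after its value was seen, as was GIM5 of prefoldin, which fell by 0.68 (SE 0.15, adjusted p = 0.0237). Without wild-type array 2 only PFD1 and YKE2 were called. With median centring 4 were higher and 3 lower, and GIM3 (-0.49, adjusted p = 0.0667) and GIM5 (-0.38, adjusted p = 0.0771) were not called. GIM5 was not called after quantile normalization either (-0.20, adjusted p = 0.19).

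Among 5 genes for regulators 2 were higher and 1 lower. HSF1 differed by -0.09 ± 0.17 on the log2 scale (adjusted p = 0.683). It read -0.92, -0.90 and -0.92 on the wild-type arrays against -1.19, -0.81 and -1.21 on the deletion arrays, with deletion array 2 above wild type and the other deletion arrays below. Without deletion array 2 its value was -0.29 and was called, and its sign turned with median centring (0.21, adjusted p = 0.424) and after quantile normalization (0.09, adjusted p = 0.699). MSN2 rose by 1.17 ± 0.18 (adjusted p = 0.0115) and MSN4 by 0.81 ± 0.22 (adjusted p = 0.0406). SFL1, a repressor related to Hsf1 in sequence, fell by 0.99 (SE 0.21, adjusted p = 0.0225). After quantile normalization neither MSN4 (0.51, adjusted p = 0.14) nor SFL1 (-0.13, adjusted p = 0.687) was called, and without wild-type array 2 only MSN2 was. With median centring SFL1 was not called (-0.69, adjusted p = 0.0747).

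**Figure D4:**
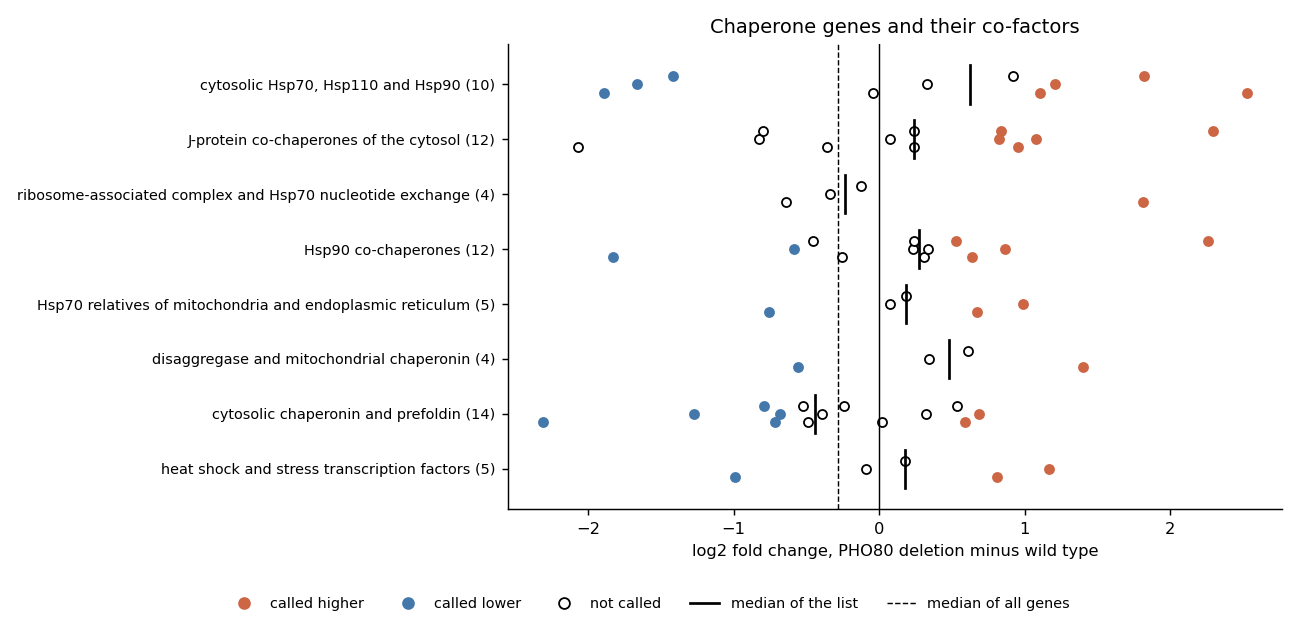
Log2 fold change (PHO80 deletion minus wild type) of the 10 chaperone genes and of 7 lists of partner genes, 1 point per gene, filled where the adjusted p was under 0.05, with a line at each list's median and a dashed line at the median of all genes. The cytosolic chaperone genes spread from -1.89 to 2.53, and the J-protein genes have 5 higher and no lower calls.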

How the data were processed

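Per the labels' protocols, total RNA of 3 wild-type and 3 PHO80-deletion samples received the Cy3 dye for 1-colour hybridisation. The deposited files hold spot intensity on a linear scale from Agilent Feature Extraction (version 10.1.1.1 per the submitters' processing notes). Per the file headers the processed signal is background-subtracted within the array. The authors' value table, used as an alternative, gives an intensity for each probe. Its scale and centring are unstated, and it tracked the scanner values (r of log2 0.997 to 0.999, median ratio 0.996 to 0.999), which makes it linear and uncentred. Column medians were 1120, 1140 and 950.5 for wild type, then 1120, 746.5 and 1670 for the deletion strain.

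Control and outlier spots (1.12% to 1.88%) were left out, and the 7 spots of a probe were averaged as log2 signal minus the array's 75th percentile. Genes well above background on at least 3 arrays were tested with limma 3.58.1 in R 4.3.3 (intensity trend, 2 samples per strain, 2 residual degrees of freedom), adjusted over all 5863. No spot was saturated. Symbols came from RefSeq R64 (5756 of 6256 matched). The members, lists, pairs and tests were chosen with earlier results of these data known. The genes named were the 10 members, PHO80 and the markers BY4741 lacks, up to 3 called genes per list by p, genes called against their list's majority, and STI1, YDJ1, SIS1, HSP104, HSF1, ZUO1, SSZ1 and FES1. The normexp alternative used the median spot signal, the one in the files. Promoter motifs, protein identity and probe sequences were not analysed here.

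Simulated data for this comparison (5863 genes, 200 changed, 20 runs) first gave both strains the same spread, which these data do not have. The share called was 47.1% for a log2 change of 2, 8.28% for 1 and 0% for 0.5, and 3.43% of calls were false. Simulated with the separate spread of each strain, as in these data, these shares were 62.8%, 39.1% and 5.75%, and 27.6% of calls were false. Alternatives covered scaling, background correction, the dim filter, the variance model, replicates, the replicate block, the value table and each left-out array.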

Additional observations from a re-analysis of the deposited data

How the results depend on the processing

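Directions of the chaperone genes held in the 16 alternatives except for HSC82, which was 0.26 with median centring. SSA3, SSA4, SSB1, SSB2, SSE2 and HSP82 passed in all 16. SSA2 did not pass when wild-type array 2 was left out (adjusted p = 0.0753) and with wild type as 1 sample (adjusted p = 0.0764), over a range of 1.94e-12 to 0.0764. SSA1 gained one in 5 alternatives and SSE1 in 1. Leaving out each array in turn gave 3 to 6 higher and 3 lower chaperone genes, and 523 to 2200 higher and 1122 to 3289 lower genes in all. The extremes came without wild-type array 2 and without deletion array 2. With wild type as 1 sample 519 genes were higher and 1130 lower. The p-values without deletion array 2 take their spread from the wild-type arrays alone. Higher genes made up 35.6% of all calls, against 51.3% with median centring and 52.8% with quantile normalization, and the median of all genes moved from -0.28 to 0.03 under both. Quantile normalization, chosen for the pairs after seeing the data, gave -0.91 for SSA1 minus SSA2, 3.73 for SSA4 minus SSA3, 0.57 for SSA4 minus SSA2 and 1.05 for SSE2 minus SSE1. Same-numbered arrays did not deviate together (correlations of -0.21, -0.17 and -0.01). Arrays of different number gave values of like size, such as 0.19 for wild-type array 1 with deletion array 2. As wild-type arrays differ by little more than spot noise, the check cannot say whether arrays were paired. With the replicate block 1132 genes were higher and 2212 lower, and 5 and 3 chaperone genes. With 6 separate arrays and the block there were 1485, 2486, 5 and 3. The small number of arrays limits the precision.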

Other observations

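Among the 56 partner genes, 6 differed by over 1 on the log2 scale between deletion array 2 and the mean of deletion arrays 1 and 3 (10.7%, against 7.83% of all genes tested and none of the 10 chaperone genes). They were named after their values were seen. APJ1 stood 1.04 higher on array 2. The others stood lower there, with differences of -2.15 for the J-protein gene JJJ3, -1.65 for the chaperonin subunit gene CCT3, and -1.18, -1.09 and -1.03 for the Hsp90 co-chaperone genes CDC37, SGT1 and CPR7. JJJ3 was dim on deletion array 2, with a processed signal of 162, 26 and 241 on the deletion arrays. Its log2 fold change of -2.07 ± 0.78 between the strains did not pass in limma (adjusted p = 0.092) although its arrays did not overlap. It was called at -0.99 without deletion array 2 and at -1.23 with normexp background correction (adjusted p = 0.0186), and was at -1.21 after quantile normalization (adjusted p = 0.248). CDC37, which brings kinase clients to Hsp90, had 0.34 ± 0.43 (adjusted p = 0.545), and its strains overlapped. Without deletion array 2 it was at 0.92 and was called, with the spread of the wild-type arrays alone. For the 10 chaperone genes the median size of this difference was 0.69, against 0.39 for all genes tested.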
